A study of Rattus norvegicus with 4 samples.

Results

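The enzymes that build, store, release and burn fatty acids were compared between 2 rat cartilages. The set held 48 genes, picked by name with earlier results of these data known. Each was found by its symbol among the 13554 genes of the deposited count table. Articular cartilage covers the bone ends within joints, while xiphoid cartilage lies at the bottom end of the breastbone. Both came from Sprague-Dawley rats aged 8 to 10 weeks with no treatment named, and each cartilage had 2 libraries. The joint, the sex and the animals behind each library are not named in the labels, so each p-value reflects only how far these samples vary, and that variation may be technical.

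Fatty acids are built in the cytosol from acetyl-CoA, lengthened and desaturated, and joined to glycerol as triglyceride, the form in which fat cells keep them in droplets. Lipases free them again, and carnitine carries them into mitochondria, where beta-oxidation shortens the chain and passes electrons to the respiratory chain. Muscle and brown fat are known for burning fatty acids, white fat for storing them, and cartilage for relying mainly on glucose.

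Fatty acid enzymes were mostly higher in xiphoid cartilage. All 48 passed the filter on low counts, and 41 were higher in xiphoid cartilage by the edgeR quasi-likelihood test at an adjusted p under 0.05, a call made for 24.5% of all 11202 genes tested. Only Acsl4 of these 48 was called higher in articular cartilage, against 25.0% of all genes. Fads1, Fads2, Acsl3, Acsl5, Lpin1 and Ehhadh were not called. The fitted fold was over 2 for 29 of the xiphoid calls, against 13.6% of all genes tested, and over 8 for 9 of them, against 3.97%. Both xiphoid libraries lay above both articular libraries for 43 enzymes, against 37.8% of all genes, and the order was the opposite for Acsl3, Acsl4 and Lpin1. The median log2 fold change, xiphoid minus articular, was 1.13 over the 48 and 0.02 over all genes tested. Because the set was chosen with earlier results known, these contrasts with all genes are descriptions, not a test of the set.

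**Figure D1:**
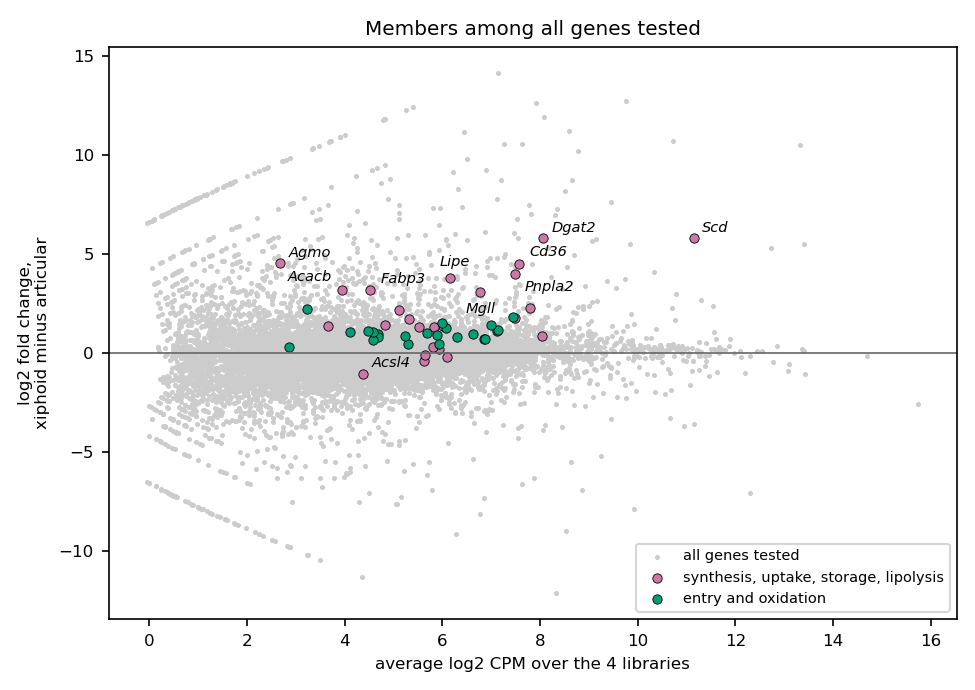
Log2 fold change, xiphoid minus articular (vertical axis), against the average log2 CPM (library-size normalised read count) over the 4 libraries (horizontal axis), for 11202 genes tested in grey and the 48 enzymes in colour by broad role. Most coloured points lie above 0, Scd and Dgat2 are the highest of them, and Acsl4 is the lowest.

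Summed over the set, the enzymes made up 0.193% and 0.2% of all articular counts and 0.944% and 1.02% of all xiphoid counts. Scd alone made up much of that gap, and without it the shares were 0.187% and 0.19% against 0.536% and 0.539%.

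Markers of fat and muscle differed between the tissues in the same direction. The 13 adipocyte markers found summed to 0.0342% and 0.0317% of counts in articular cartilage and to 0.386% and 0.312% in xiphoid cartilage, and 12 of them were higher in xiphoid cartilage, with a median log2 fold change of 5.62. The most abundant by CPM, the library-size normalised read count after TMM scaling, were Fabp4 and Cfd. Fabp4, a fatty acid carrier of fat cells, measured 27.63 and 14.9 CPM in articular and 1295 and 809.6 CPM in xiphoid libraries. Cfd, the secreted protease adipsin, measured 38.52 and 31.98 against 800 and 639.4 CPM. Lep, which encodes leptin, had no count in articular cartilage and was at least 69.7-fold higher in xiphoid cartilage, measured against 3 counts over both articular libraries. Rbp4 was the marker not called, named after its value was seen. It measured 244.9 and 239 CPM in articular and 276.1 and 271.9 CPM in xiphoid libraries, and made up most of the articular sum. Of the 13 markers, 6 also stand in the lists of further pathway genes used below.

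The 22 skeletal muscle markers found summed to 0.032% and 0.0255% in articular and to 1.16% and 1.15% in xiphoid cartilage. Of these, 21 were higher in xiphoid cartilage, and the median log2 fold change was 9.99, or 8.99 with the genes that had no articular count set at their lower bound. The most abundant were Acta1, the actin of skeletal muscle fibres, with 2.273 and 1.67 against 3032 and 3678 CPM, and Ckm, muscle creatine kinase, with 0.1196 and 0.3853 against 1734 and 1750 CPM. Myh2, Myh7 and Pvalb had no articular count, and Tnni2, named after its value was seen, was not called. Tnni2 measured 268.6 and 210.5 CPM in articular and 253.2 and 233 CPM in xiphoid libraries, and made up most of the articular sum. The part of fat and muscle RNA in the enzyme differences was not tested, and in such bulk samples fewer cells of a type and less RNA per cell cannot be told apart.

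Chondrocyte markers took 13.1% and 11.1% of articular counts against 3.57% and 3.27% of xiphoid counts, so both tissues carried cartilage transcripts. Most of that gap came from Col2a1 alone, with 864303 and 667025 articular against 139014 and 108483 xiphoid counts. Of the 11 markers, 6 stood higher in articular and 2 in xiphoid cartilage, and 3 were not called. The median log2 fold change of the list was -0.49. All 8 bone cell markers (0.341% and 0.227% against 0.00324% and 0.00346%), all 4 tested osteoclast markers (0.132% and 0.134% against 0.0152% and 0.0141%) and 8 of 9 tested erythroid and marrow markers (0.0211% and 0.0207% against 0.00162% and 0.00185%) were higher in articular cartilage. The endothelial list ran at 0.0152% and 0.0148% against 0.0264% and 0.0249%, with 5 of 10 higher in xiphoid cartilage and 1 in articular. Fibroblast markers stood at 0.0956% and 0.111% against 0.124% and 0.123%, with 5 of 9 higher in xiphoid cartilage and 1 in articular. Macrophage markers stood at 0.0152% and 0.0151% against 0.0121% and 0.011%, with 1 of 8 higher in xiphoid cartilage and 2 in articular.

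**Figure D2:**
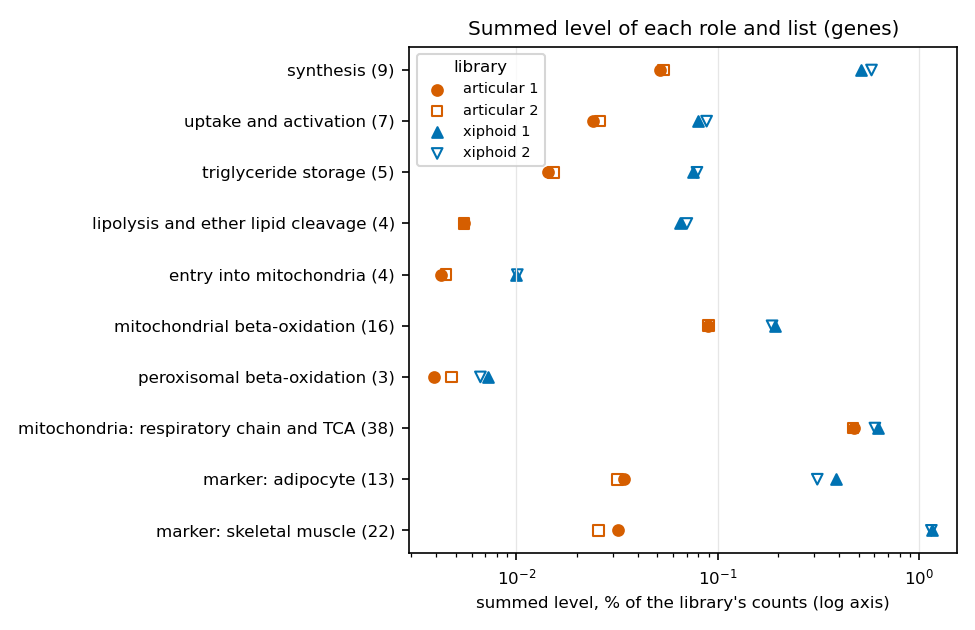
Share of each library's counts (horizontal axis, percent, log axis) taken by the enzymes of each role, the respiratory chain and TCA list and the fat and muscle marker lists, with the number of genes in brackets and 1 point per library. The xiphoid points lie to the right in every row, by the least in the respiratory chain row.

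Synthesis and desaturation came first in the pathway. Of its 9 enzymes 7 were higher in xiphoid cartilage, with a median log2 fold change of 1.35. Scd showed the widest gap of the 48, and the 2 front-end desaturases Fads1 and Fads2 were not called.

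Acly, which splits citrate to give cytosolic acetyl-CoA, measured 197.4 and 179.9 CPM in articular cartilage and 358.8 and 308.9 CPM in xiphoid cartilage. Its log2 fold change was 0.82 ± 0.15 (SE, n = 2 per tissue; adjusted p = 0.000629), the smallest called change of the synthesis group. Acetyl-CoA carboxylase makes malonyl-CoA, the building unit of the chain and a brake on entry into mitochondria. Its cytosolic form Acaca measured 25.48 and 27.23 against 62.2 and 68.77 CPM (1.31 ± 0.16, adjusted p = 3.67e-05). Acacb, the form on the mitochondrial surface, measured 2.393 and 3.596 against 34.1 and 20.41 CPM, a log2 fold change of 3.19 ± 0.32 (adjusted p = 6.51e-06). The xiphoid libraries differed from each other more for Acacb than for Acaca, yet neither gene had overlapping tissues. The ratio of Acacb to Acaca counts within a library was 0.0939 and 0.132 in articular and 0.548 and 0.297 in xiphoid cartilage. The mean ratio thus changed 3.62-fold. Transcript length still weighs on each such ratio, and cancels only when the ratio is compared between libraries. No test was made of such ratios, since 2 libraries per tissue are too few for an exact permutation test to pass 0.05.

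Fasn, the synthase that builds palmitate, measured 79.07 and 74.88 CPM in articular and 378.3 and 353.3 CPM in xiphoid cartilage. It was 4.75-fold higher in xiphoid cartilage (log2 2.25 ± 0.15, adjusted p = 1.36e-07), with libraries of a tissue close together. Elovl6, which lengthens palmitate, measured 7.058 and 6.807 against 18.11 and 17.95 CPM (2.6-fold, adjusted p = 0.000396). Elovl5, which lengthens polyunsaturated chains, measured 32.54 and 40.07 against 88.43 and 96.58 CPM (2.55-fold, adjusted p = 3.32e-05). The ratio of Elovl5 to Elovl6 overlapped between tissues.

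Scd, the desaturase that puts the first double bond into stearate, measured 67.35 and 93.76 CPM in articular cartilage and 4049 and 4841 CPM in xiphoid cartilage. Both xiphoid libraries stood far above both articular ones, a 55.2-fold difference (log2 5.79 ± 0.23, adjusted p = 1.63e-09). Scd has a close copy, Scd2, so reads could be split between them. The expected counts of both were whole or nearly so, with few reads shared out in fractions. Scd had 563 and 730 articular and 34429.99 and 35336 xiphoid counts, and Scd2 had 4927 and 4737 against 8743.99 and 7406. Whether whole reads went to the wrong copy was not tested. The ratio of Scd to Fasn counts was 0.852 and 1.25 in articular and 10.7 and 13.7 in xiphoid cartilage. The 250 bases before its start at chr1:253231732-253231981 (GRCr8, minus strand, from RefSeq) are shown because Scd had the largest change of the set. They hold none of the nuclear receptor half-site AGGTCA, which would be in capitals.

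Scd: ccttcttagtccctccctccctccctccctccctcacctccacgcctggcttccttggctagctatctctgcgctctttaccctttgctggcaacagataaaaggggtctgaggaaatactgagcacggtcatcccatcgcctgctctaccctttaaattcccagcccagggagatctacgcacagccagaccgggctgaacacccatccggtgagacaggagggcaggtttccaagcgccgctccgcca

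Fads1, which desaturates at the delta-5 position, measured 48.09 and 53.43 against 56.68 and 65.89 CPM (log2 0.27, 95% interval -0.08 to 0.62, adjusted p = 0.184). Fads2, the delta-6 desaturase, measured 56.7 and 57.16 against 63.38 and 65.35 CPM (log2 0.18, interval -0.15 to 0.50, adjusted p = 0.354). Both genes had xiphoid libraries above articular ones by little, and changes above the upper bounds are outside the intervals.

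Of 17 further synthesis genes tested, 11 were higher in xiphoid and 1 in articular cartilage, with a median log2 fold change of 0.79. Cyb5r3, a reductase that feeds desaturases, was 4.06-fold higher in xiphoid cartilage, Hacd3, a dehydratase of chain elongation, 2.53-fold and Elovl1 2.53-fold. Elovl4, an elongase of very long chains, was 3.13-fold higher in articular cartilage at low counts. Of 20 tested regulators, 4 were higher in each tissue, no more often than among all genes tested (24.5% in xiphoid and 25.0% in articular cartilage). Thrsp, a lipogenic nuclear protein, rose 221-fold from 1.555 and 0.8991 to 296.4 and 256.2 CPM, Pparg, the receptor that drives fat cell formation, 15.1-fold and Nr1h3, a sterol receptor, 8.66-fold. Lpin3, Nrf1 and Insig2 were higher in articular cartilage, by 2.7-fold, 1.66-fold and 1.39-fold. Lpin3 belongs to the family of the storage enzyme Lpin1 but was listed with the regulators. The median of the regulator list was -0.14. Thrsp and Pparg are also on the adipocyte list.

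**Figure D3:**
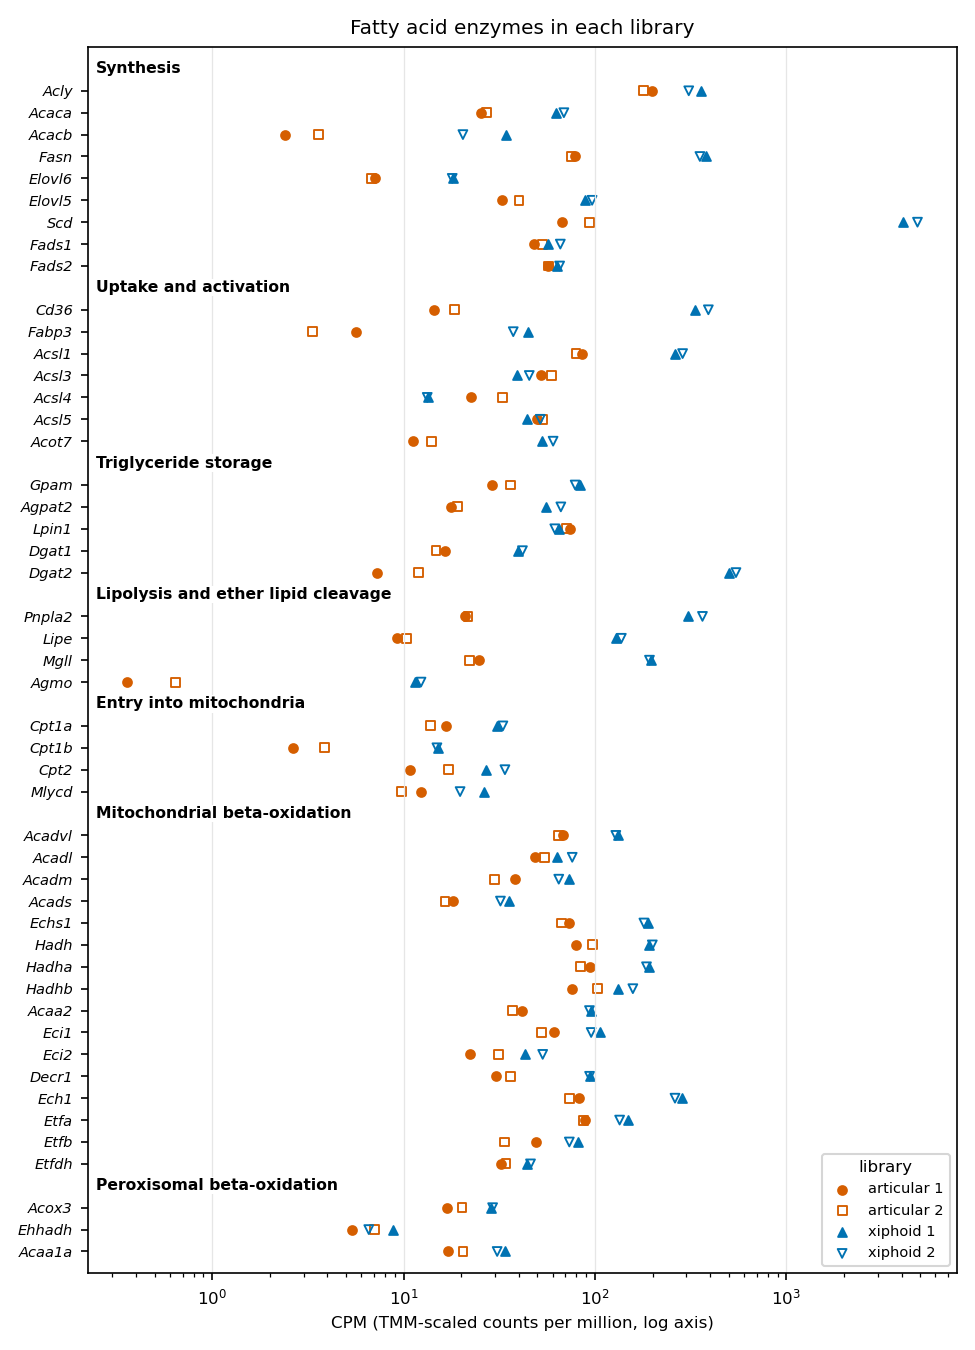
CPM of each of the 48 enzymes in each library (horizontal axis, log axis), grouped by role, with circles and squares for articular and triangles for xiphoid libraries. Scd, Cd36, Dgat2 and the lipases show wide gaps, while Fads1, Fads2, Acsl5 and Ehhadh have libraries close together; levels of different genes are not comparable because CPM is not divided by length.

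Uptake and activation were uneven. Of 7 genes, 4 were higher in xiphoid cartilage and Acsl4 in articular cartilage, with a median log2 fold change of 1.74. Of the 4 long-chain acyl-CoA synthetases, which couple a fatty acid to CoA, Acsl1 was higher in xiphoid and Acsl4 in articular cartilage, and Acsl3 and Acsl5 were not called.

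Cd36, a fatty acid receptor and transporter of the cell surface, measured 14.36 and 18.37 CPM in articular and 334 and 391.1 CPM in xiphoid cartilage, 22.2-fold higher (log2 4.47 ± 0.19, adjusted p = 3.21e-09). Fabp3, the fatty acid carrier of heart and muscle, measured 5.622 and 3.339 against 44.68 and 37.4 CPM, 9.09-fold higher (log2 3.18 ± 0.26, adjusted p = 9.23e-07). Acot7, a thioesterase that frees fatty acids from CoA, measured 11.24 and 14 against 52.68 and 60.41 CPM, 4.48-fold higher (adjusted p = 2.16e-06). In all 3 genes both xiphoid libraries were well above both articular ones. The span of Fabp3 overlaps that of Zcchc17, and the strand used in counting is not given. Whether reads of the pair were mixed was not tested.

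Acsl1, the main synthetase of fat and muscle, measured 85.05 and 79.5 CPM in articular and 261.8 and 286.9 CPM in xiphoid cartilage (3.33-fold, log2 1.74 ± 0.15, adjusted p = 1.40e-06). Acsl4, which prefers arachidonate, measured 22.61 and 32.75 against 13.41 and 13.29 CPM, 2.07-fold higher in articular cartilage (log2 -1.05 ± 0.23, adjusted p = 0.00216). The tissues did not overlap for either gene, and the articular libraries differed more from each other for Acsl4. Acsl3, a synthetase of lipid droplets, measured 52.4 and 59.08 against 39.16 and 45.35 CPM (log2 -0.40, interval -0.76 to -0.04, adjusted p = 0.0612). It was not called, but without articular replicate 1 its adjusted p was 0.0191, in favour of articular cartilage. Acsl5 measured 49.65 and 52.92 against 44.33 and 51.78 CPM (adjusted p = 0.659), with libraries of the tissues overlapping, and its gene overlaps Zdhhc6. The ratio of Acsl1 to Acsl4 counts was 3.76 and 2.43 in articular against 19.5 and 21.6 in xiphoid cartilage, a 6.79-fold change, and those to Acsl3 and Acsl5 changed 4.4-fold and 3.56-fold, with no overlap in any of the 3.

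**Figure D4:**
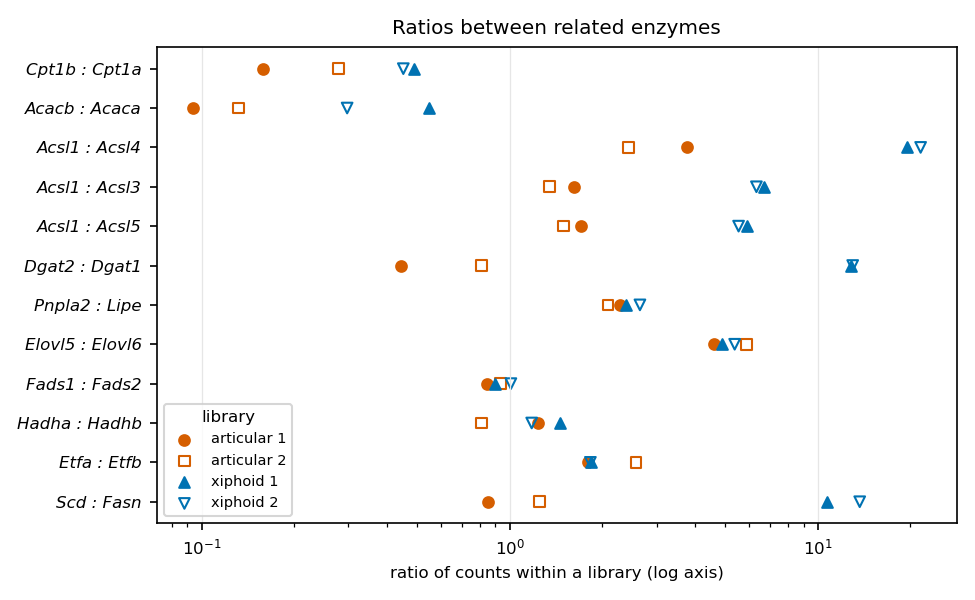
Ratio of the counts of related enzymes within each library (horizontal axis, log axis), 1 point per library. The ratios of Dgat2 to Dgat1 and of Scd to Fasn separate the tissues by the most, while those of Elovl5 to Elovl6, Fads1 to Fads2, Hadha to Hadhb and Etfa to Etfb overlap.

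Of 18 further uptake genes tested, 11 were higher in xiphoid and 1 in articular cartilage (median log2 fold change 0.91). Lpl, the lipase that frees fatty acids from blood lipoproteins, was 14.2-fold higher in xiphoid cartilage, Gpihbp1, which holds that lipase on capillary walls, 17.6-fold and Slc27a6, a fatty acid transporter, 16.2-fold. Acsf2, an acyl-CoA synthetase, was 1.58-fold higher in articular cartilage.

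Triglyceride storage showed 4 of 5 enzymes higher in xiphoid cartilage, with a median log2 fold change of 1.38 and most of the gap in Dgat2. Gpam, which attaches the first acyl chain to glycerol phosphate, measured 28.95 and 36.09 against 83.49 and 78.77 CPM (2.5-fold, adjusted p = 4.40e-05). Agpat2, which attaches the second chain, measured 17.7 and 19.14 against 55.5 and 66.31 CPM (3.3-fold, adjusted p = 7.45e-06), and its gene overlaps Egfl7. Both were higher in each xiphoid library than in each articular one. Lpin1, the phosphatase that makes diacylglycerol, measured 74.17 and 70.77 against 65.03 and 61.65 CPM (log2 -0.19, interval -0.52 to 0.13, adjusted p = 0.306), and was slightly lower in the xiphoid libraries without passing the test.

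Dgat1 and Dgat2 both add the last chain of triglyceride. Dgat1 measured 16.39 and 14.77 CPM in articular and 39.39 and 41.78 CPM in xiphoid cartilage (2.6-fold, log2 1.38 ± 0.18, adjusted p = 6.49e-05). Dgat2 measured 7.297 and 11.94 against 504.2 and 545.2 CPM, a 54.7-fold difference (log2 5.77 ± 0.23, adjusted p = 1.81e-09). The ratio of Dgat2 to Dgat1 counts was 0.445 and 0.809 in articular and 12.8 and 13.0 in xiphoid cartilage, so it changed 21.5-fold with no overlap. The adipocyte list moved the same way, at 0.0342% and 0.0317% of counts against 0.386% and 0.312%, the articular sum being mostly Rbp4. The median log2 fold change of the list was 5.62, and the part of the list in the Dgat2 difference was not tested.

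Lipolysis and ether lipid cleavage had the highest median of the 7 roles, with all 4 enzymes higher in xiphoid cartilage by over 8-fold and a log2 fold change of 3.86 at the median. Pnpla2, the lipase that takes the first fatty acid from triglyceride, measured 21.05 and 21.71 CPM in articular and 306 and 364.3 CPM in xiphoid cartilage (15.7-fold, log2 3.97 ± 0.17, adjusted p = 3.68e-09). Lipe, hormone-sensitive lipase, which takes the second, measured 9.211 and 10.4 against 128.1 and 137.3 CPM (13.5-fold, log2 3.76 ± 0.18, adjusted p = 7.51e-09). Mgll, which takes the last, measured 24.76 and 22.09 against 197 and 192.6 CPM (8.31-fold, log2 3.05 ± 0.16, adjusted p = 2.11e-08). Articular and xiphoid libraries stood far apart in each of these 3 lipases, and the libraries of a tissue stood close together. The ratio of Pnpla2 to Lipe counts hardly moved, at 2.29 and 2.09 against 2.39 and 2.65. Agmo, which cleaves ether lipids, had 3 and 5 counts in articular and 97 and 90 in xiphoid cartilage, or 0.3589 and 0.6422 against 11.41 and 12.33 CPM (23.2-fold, log2 4.54 ± 0.42, adjusted p = 2.85e-06). Its articular level rests on 8 reads in all, and its standard error was the largest of the 48.

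Of 23 further storage and lipolysis genes tested, 17 were higher in xiphoid cartilage and 6 were not called (median log2 fold change 1.29). This list left out Lpin3, a relative of Lpin1 listed with the regulators, which was 2.7-fold higher in articular cartilage. Gpd1, which makes glycerol phosphate, measured 3.23 and 3.468 against 377.7 and 350.4 CPM (108-fold), and the droplet coat gene Plin1 was 44.2-fold and Cidec, a droplet fusion gene, 14.8-fold higher in xiphoid cartilage. Plin1 and Cidec are also on the adipocyte list.

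**Figure D5:**
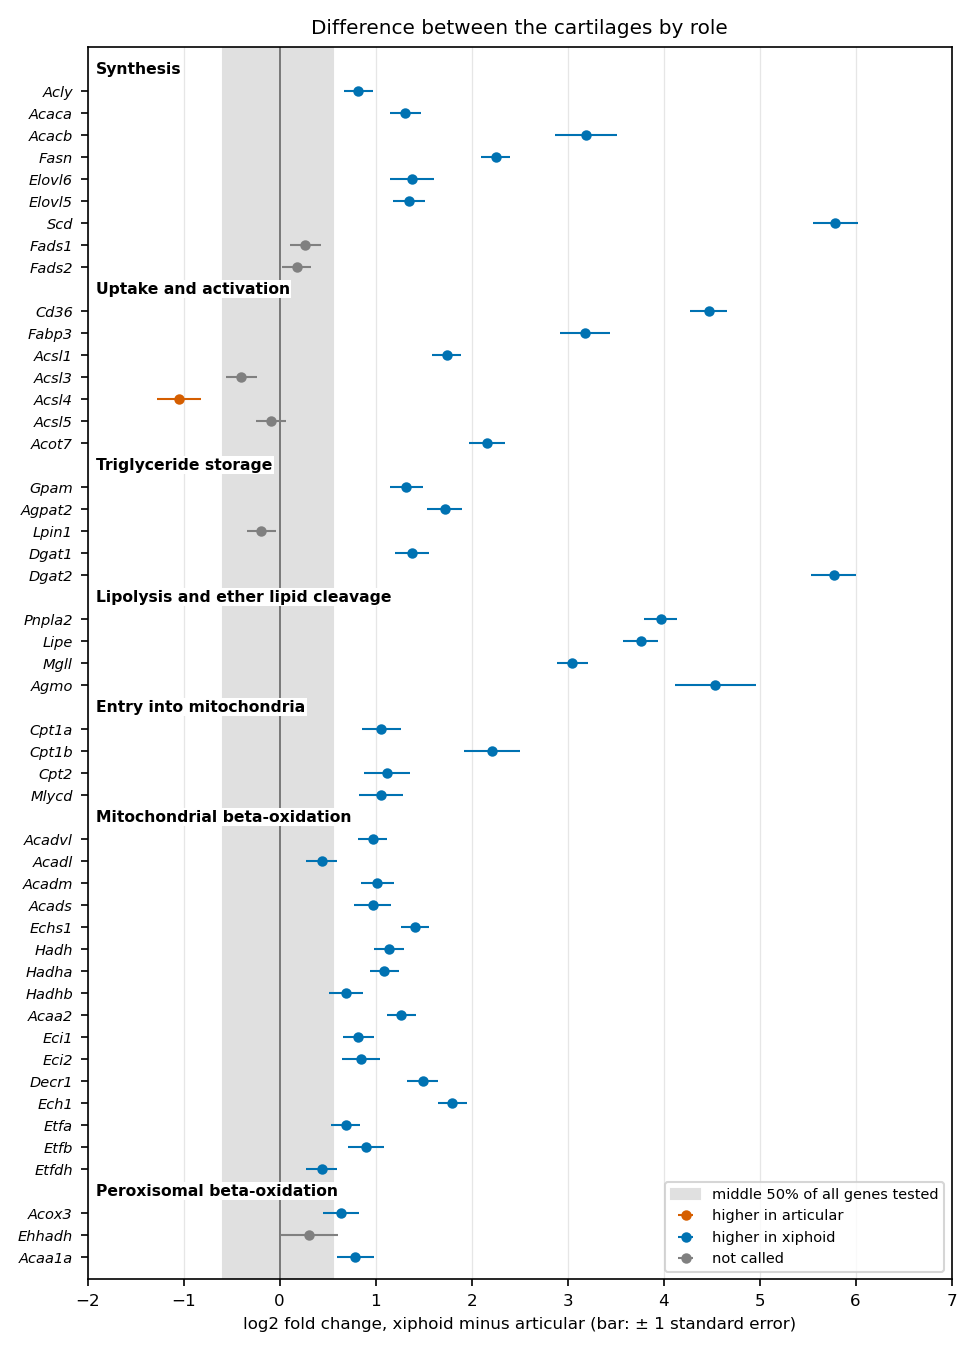
Log2 fold change, xiphoid minus articular, of each enzyme (horizontal axis, points with bars of 1 standard error), grouped by role, with the band from -0.58 to 0.55 that holds the middle 50% of all genes tested. All 4 lipolysis points lie beyond 3, all 16 points of mitochondrial beta-oxidation lie between 0.44 and 1.80, and Acsl4 is on the articular side.

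Entry into mitochondria was higher in xiphoid cartilage for all 4 genes, with a median log2 fold change of 1.09. Cpt1a, the carnitine transferase of the outer membrane found in most tissues, measured 16.63 and 13.87 against 30.81 and 33.02 CPM (2.09-fold, adjusted p = 0.000726). Cpt1b, its muscle form, measured 2.632 and 3.853 against 15.05 and 14.93 CPM (4.62-fold, log2 2.21 ± 0.29, adjusted p = 5.90e-05). The ratio of Cpt1b to Cpt1a was 0.158 and 0.278 in articular and 0.489 and 0.452 in xiphoid cartilage, a 2.24-fold change with no overlap. Skeletal muscle markers moved the same way, at 0.032% and 0.0255% of counts against 1.16% and 1.15%, the articular sum being mostly Tnni2. The median log2 fold change of these markers was 9.99, or 8.99 with genes at 0 in articular cartilage set at their lower bound. The part of these markers in the Cpt1b and Fabp3 differences was not tested. Cpt2, the transferase of the inner membrane, measured 10.77 and 17.21 against 27.05 and 33.84 CPM (2.18-fold, adjusted p = 0.00219). Mlycd, which breaks down malonyl-CoA, measured 12.32 and 9.761 against 26.22 and 19.73 CPM (2.08-fold, adjusted p = 0.00251). Neither gene had overlapping tissues, though libraries of a tissue spread more for both than for Cpt1b in xiphoid cartilage.

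Mitochondrial beta-oxidation was higher in xiphoid cartilage throughout, by less than lipolysis at the median. All 16 genes were called higher in xiphoid cartilage, 7 of them by over 2-fold, with log2 fold changes from 0.44 to 1.80 and a median of 0.97. In all 16 both xiphoid libraries lay above both articular libraries. Among all genes tested, 24.5% were called higher in xiphoid cartilage, and 13.6% were called with a fold over 2. Both xiphoid libraries lay above both articular ones for 37.8%. At a stricter null, a fold of 1.5, 9 of the 16 were called. Of all 11202 genes tested, 1538 were called higher in xiphoid cartilage at that null.

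The acyl-CoA dehydrogenases make the first double bond of each round and are named by the chain they take. Acadvl, for very long chains, measured 68.19 and 64.73 against 131.6 and 128.5 CPM (1.96-fold, adjusted p = 0.000175). Acadm, for medium chains, measured 38.04 and 29.93 against 73.14 and 64.66 CPM (2.03-fold, adjusted p = 0.000433). Acads, for short chains, measured 18.06 and 16.44 against 35.63 and 32.06 CPM (1.96-fold, adjusted p = 0.00102). These 3 had nearly the same fold, with no overlap between tissues. Acadl, for long chains, measured 48.69 and 54.2 against 63.15 and 76.03 CPM, only 1.35-fold higher (adjusted p = 0.0428). Its call was lost in 8 of the 15 alternatives, among them DESeq2 (adjusted p = 0.100), upper-quartile factors (0.0687) and leaving out articular replicate 1, xiphoid replicate 1 or xiphoid replicate 2 (adjusted p = 0.0984, 0.0683 and 0.398). Its log2 fold change ran from 0.28 to 0.56 over the alternatives.

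Hydration, the next step, falls to Echs1 for short chains, which measured 72.73 and 66.53 against 189.2 and 180.1 CPM (2.65-fold, adjusted p = 8.94e-06). Hadh, the short-chain dehydrogenase, measured 79.19 and 97.23 against 190.7 and 199.3 CPM (2.21-fold, adjusted p = 7.43e-05). Acaa2, the thiolase that ends a round, measured 41.39 and 37.12 against 95.25 and 93.57 CPM (2.4-fold, adjusted p = 3.14e-05). The xiphoid libraries lay close together for these 3 genes and stayed above the articular ones.

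Hadha and Hadhb encode the subunits of the trifunctional protein, which carries out the later steps of each round on long chains. Hadha measured 94.03 and 83.61 against 191.4 and 185.8 CPM (2.12-fold, log2 1.09 ± 0.15, adjusted p = 7.24e-05). Hadhb measured 75.72 and 103.4 against 131.3 and 157.7 CPM (1.61-fold, log2 0.69 ± 0.18, adjusted p = 0.0068), and without xiphoid replicate 2 its adjusted p was 0.0730. The articular libraries differed in opposite senses for the 2 subunits, and the ratio of Hadha to Hadhb counts overlapped between tissues, at 1.24 and 0.809 against 1.46 and 1.18. The genes lie head to head, and the 300 bases between their starts at chr6:31907501-31907800 (GRCr8, plus strand, from RefSeq) are shown because both subunits were higher in xiphoid cartilage. Hadhb starts to the left and runs leftward, Hadha starts to the right, and the capitals mark the 200 bases that lie within 250 bases before both starts.

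Hadha and Hadhb: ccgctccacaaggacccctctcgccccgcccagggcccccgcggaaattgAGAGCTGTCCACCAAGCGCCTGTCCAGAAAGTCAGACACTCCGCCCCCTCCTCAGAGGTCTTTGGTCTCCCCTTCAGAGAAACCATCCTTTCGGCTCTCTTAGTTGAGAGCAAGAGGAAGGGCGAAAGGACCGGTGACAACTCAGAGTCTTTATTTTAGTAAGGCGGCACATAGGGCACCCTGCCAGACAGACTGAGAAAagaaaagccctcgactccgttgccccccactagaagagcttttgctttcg

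Ech1 and Decr1, which handle double bonds, had the largest fitted changes of the 16 genes. Ech1, which moves paired double bonds, measured 82.78 and 73.34 against 283.4 and 261.8 CPM (3.49-fold, log2 1.80 ± 0.15, adjusted p = 1.20e-06). Decr1, the dienoyl-CoA reductase, measured 30.39 and 36.09 against 93.6 and 93.7 CPM (2.82-fold, log2 1.49 ± 0.16, adjusted p = 1.10e-05). Both stood well apart between the tissues. The isomerases Eci1 and Eci2 differed less: Eci1 measured 61.25 and 52.79 against 105.8 and 95.49 CPM (1.77-fold, adjusted p = 0.00098). Eci2 measured 22.25 and 31.47 against 43.27 and 53.29 CPM (1.8-fold, adjusted p = 0.00425), without overlap.

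Electrons from the dehydrogenases pass through the flavoprotein of Etfa and Etfb to its oxidoreductase Etfdh. Etfa measured 88.76 and 86.83 against 149.5 and 134.5 CPM (1.62-fold, adjusted p = 0.00198). Etfb measured 49.29 and 33.78 against 81.37 and 73.43 CPM (1.86-fold, adjusted p = 0.00193). Etfdh measured 32.42 and 34.29 against 44.33 and 46.03 CPM, 1.35-fold higher (adjusted p = 0.0409). The 3 genes did not overlap between tissues, but the call of Etfdh was lost in 7 of the 15 alternatives, among them DESeq2 (adjusted p = 0.119), upper-quartile factors (0.0630) and leaving out articular replicate 1, xiphoid replicate 1 or xiphoid replicate 2 (adjusted p = 0.0823, 0.179 and 0.246). Its log2 fold change stayed between 0.39 and 0.48 over the alternatives, against 0.44 in the main test.

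Respiratory chain and TCA genes, the next users of those electrons, gave 18 of 38 higher in xiphoid and 2 in articular cartilage, with a median log2 fold change of 0.39 and 0 over 2-fold. Suclg1, Cox5a and Ndufv2 were 1.86-fold, 1.91-fold and 1.67-fold higher in xiphoid cartilage. Tomm20 and Vdac1, of the outer membrane, were 1.41-fold and 1.34-fold higher in articular cartilage. The difference between this list and beta-oxidation was not tested. Of 36 further oxidation genes tested, 25 were higher in xiphoid and 1 in articular cartilage (median 1.02). Phyh, of branched-chain oxidation, was 3.47-fold higher in xiphoid cartilage, and Acadsb, of branched short chains, was 2.4-fold higher in articular cartilage. Ucp3, a muscle uncoupling protein, had 1 articular count against 409 xiphoid counts, a ratio of 419 with an exact 95% interval from 74.8 to 16600 for counting error only.

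Peroxisomal beta-oxidation, which shortens very long and branched chains, had the lowest median of the 7 roles, with 2 of 3 genes higher in xiphoid cartilage and a median log2 fold change of 0.64. Acox3, an oxidase of branched chains, measured 16.87 and 20.17 against 28.69 and 29.18 CPM (1.56-fold, adjusted p = 0.0146). Without xiphoid replicate 1 or 2 its adjusted p was 0.0745 or 0.0853, which left 1 call in the group, and its gene overlaps Trmt44. Acaa1a, the peroxisomal thiolase, measured 16.99 and 20.42 against 33.87 and 30.82 CPM (1.73-fold, adjusted p = 0.00457). Acaa1a overlaps Myd88 and has a close copy, Acaa1b, so its reads could be split. Ehhadh, the bifunctional enzyme, measured 5.383 and 7.064 against 8.819 and 6.576 CPM (log2 0.31, interval -0.35 to 0.98, adjusted p = 0.418), with libraries that overlapped.

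Promoters of 37 of the 48 genes were found in RefSeq, each from 250 bases before to 50 after the start, and 6 motifs were searched on both strands. CCAAT was present in 43.2% of the 37 and in 37.9% of the tested genes, AGGTCA in 16.2% and 11.8%, and CACGTG in 5.41% and 9.44%. The sterol element TCACNCCAC was found in Ehhadh only, in 2.70% against 1.12%, and GCGCNTGCGC in 8.11% against 10.1%. The pair of AGGTCA half-sites 1 base apart was in 0 of the 37 and in 0.0547% of the tested genes. These matches are letters, not sites of binding, and AGGTCA is part of that pair. AGGTCA was found in Acacb, Acadvl, Echs1, Eci1, Eci2 and Hadhb. Acadvl is shown because it holds 2 of them in the 250 bases before its start at chr10:55236706-55236955 (GRCr8, minus strand, from RefSeq), with the capitals marking them.

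Acadvl: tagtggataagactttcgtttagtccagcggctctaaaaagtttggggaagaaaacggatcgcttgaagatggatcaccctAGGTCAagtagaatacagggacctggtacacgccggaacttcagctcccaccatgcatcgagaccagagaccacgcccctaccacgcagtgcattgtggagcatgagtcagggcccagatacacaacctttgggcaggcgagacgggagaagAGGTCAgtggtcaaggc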

How the data were processed

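The submitters' processing notes name HISAT2 2.0.4, StringTie 1.2.1, Bowtie2 2.2.6, RSEM 1.2.12 and build rn6, with no role given. The deposited table holds expected counts, estimated read numbers that need not be whole, per gene and library, per the file headers; totals ran from 7351006 to 8434820 counts per library. Here they were rounded, filtered with filterByExpr by tissue (11202 genes tested, 2352 not), scaled by TMM and tested with the edgeR 4.0.16 quasi-likelihood test (robust, R 4.3.3) with tissue as the only term, 2-sided, and Benjamini-Hochberg adjustment over all genes at 0.05. Standard errors are on the log2 scale and intervals cover 95%. The procedure was tested on simulated data.

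All 48 enzymes are named. There were 5 lists of further pathway genes (regulators, synthesis, uptake, storage and lipolysis, oxidation) and a respiratory chain list. From each, up to 3 genes per direction with the lowest adjusted p are named. Of the fat and muscle marker lists, the 2 most abundant genes and those at 0 are named. Markers of other lists are given as totals, except Col2a1, named for its weight in the sum. A gene of the oxidation list that the rule would name is not reported here. The enzymes and lists were chosen with earlier results of these data known. The alternatives were RLE, upper-quartile and no factors, no filter, a mean CPM of 5, DESeq2 1.42.0, limma-voom (limma 3.58.1), a replicate block, glmTreat against 1.5-fold, leaving out fat and muscle markers, ribosomal RNA rows or each library. The whole spans, from start to end, of 21 of the 48 enzymes overlap another gene, 5 of them a gene of the table. Whether reads of such pairs were mixed was not tested. No source used here says whether reads were counted by strand. GRCr8 was used only for promoters and for these span overlaps.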

Additional observations from a re-analysis of the deposited data

How the results depend on the processing

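Of the 42 called enzymes, 42 kept their direction under all 15 alternatives, and 38 kept their call under every alternative except glmTreat. The exceptions were Acadl, Etfdh, Acox3 and Hadhb. The number of enzymes higher in xiphoid cartilage ranged from 37 to 41 without 1 library and from 39 to 41 under the other alternatives except glmTreat against 1.5-fold, which gave 31. That stricter null also left 9 of mitochondrial beta-oxidation, 0 of peroxisomal beta-oxidation (2 in the main test and by DESeq2), and 1538 genes higher in xiphoid and 1686 in articular cartilage, where the main test gave 2745 and 2799. The count higher in articular cartilage, and that of uptake and activation, was 2 with upper-quartile factors and 2 with the replicate block, Acsl3 joining Acsl4. Leaving out 1 library gave 1 to 2 for both counts and 1 to 2 for peroxisomal calls in xiphoid cartilage. The log2 fold change of Acsl5 ranged from -0.2216 to 0.0054 without 1 library, turning to the xiphoid side without xiphoid replicate 1, and was not called under any alternative. With the replicate block, 41 enzymes were higher in xiphoid cartilage. The correlation of replicate deviations between tissues was 0.30 over 11202 genes. The labels do not say whether libraries with the same replicate number share an animal or a batch, and 2 pairs cannot settle it. With 1 library left in a tissue, the fit assumes that it varies like the other tissue. Depth limits Agmo, at 3 and 5 articular counts, the most.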
